A study of Homo sapiens with 102 samples.

Results

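The 28 genes described here encode proteins of the small subunit of the cytosolic ribosome. They were chosen by name, and their rows were found in the count table by Ensembl identifier. All 28 were present among the 24965 genes of the table: RPSA, RPS2, RPS3, RPS3A, RPS4X, RPS6, RPS7, RPS9, RPS10, RPS12, RPS13, RPS14, RPS15, RPS15A, RPS16, RPS18, RPS19, RPS20, RPS21, RPS23, RPS24, RPS25, RPS26, RPS27, RPS27A, RPS28, RPS29 and FAU. The rule used no measured value.

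The data came from Combi-Seq, in which single cells are enclosed in picolitre droplets with a pair of drugs, and a barcode fragment for each drug is ligated in the droplet so that reads can be assigned to the pair after pooling. The cells were K562, an established chronic myeloid leukaemia line carrying the BCR-ABL fusion, and droplets were incubated for 12 h. Cells met DMSO as solvent, the ABL kinase inhibitor imatinib, the MEK inhibitor trametinib or the compound spelled YM115 in the labels, which the study calls a survivin inhibitor. Each of 2 screens, labelled dT and Bio, held all 16 ordered pairs in 3 runs each plus 3 separate DMSO controls, which gave 102 libraries. The screens differed in which of the injected drugs carried which barcode fragment. Which drug of a label entered the droplet from which source was not settled from the labels, so a drug is named here by its place in the label, first-listed or second-listed. Each library is a pool of cells of 1 line. The study repeated the whole process for each run and calls the runs biological replicates, but no source used here says that the cells came from separate cultures, so p-values measure the spread between these libraries. Doses are not given in the labels.

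The small subunit binds the messenger RNA, scans it for the start codon and monitors the pairing of codon and tRNA, while the large subunit forms the peptide bond. Ribosomal protein genes are among the most strongly transcribed genes of dividing cells, and the proteins are made in matched amounts because each ribosome holds a single copy of nearly every protein. Most of their messenger RNAs start with a run of pyrimidines at the very first base, the 5′ terminal oligopyrimidine (TOP) motif, through which mTOR signalling controls their translation. In haematopoiesis the family is known for Diamond-Blackfan anaemia, in which loss of 1 copy of a ribosomal protein gene such as RPS19 or RPS24 reduces red cell formation.

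Of the in-screen libraries, all 48 of the dT screen and 44 of 48 of the Bio screen held at least 1000 detected genes and at most 15% mitochondrial counts, and these enter the comparisons. Total counts ranged from 127042 to 759756 (dT) and from 81806 to 780143 (Bio). The 4 Bio libraries left out had 17882 to 93932 counts and 438 to 808 detected genes, and 3 of them were the whole Imatinib_Imatinib group. Of the separate DMSO controls, runs 2 and 3 of each screen were over the 15% limit, with 31.0% and 36.9% mitochondrial counts in dT and 24.99% and 28.1% in Bio. Run 1 had 10.2% in dT and 5.10% in Bio. In-screen libraries that passed reached at most 7.33% and 6.87%, so run 1 in Bio lay within their range for this share. That Bio library held 35742 counts and 5501 detected genes. In-screen Bio libraries that passed held at least 81806 counts and at most 3849 detected genes. Haemoglobin gamma 2 (HBG2), a K562 marker that shares sequence with HBG1, had a median of 36950 CPM (counts scaled to a library total of 1e6) in dT and 26361 CPM in Bio. Of 12 K562 marker genes, 5 (dT) and 4 (Bio) had a median above 0. None of the 13 markers of other cell types found in the table had a median above 0, and their summed level reached 666 CPM in dT and 1983 CPM in Bio.

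The TOP motif is shown first, because it is the sequence feature that these genes share and that the choice of members did not use. RefSeq start sites (GRCh38.p14) were available for 25 of the 28 genes, with 28 start sites in all. A start was counted as carrying the motif when its first base was C and at least 4 further bases were C or T. The motif was present at 19 of the 28 starts (67.9%), in 19 genes. It was present at 28 of 50 starts of large subunit genes (56%) and at 1429 of 35116 starts of all genes (4.07%). The windows below run from 12 bases before the start to the 16th transcribed base, with the pyrimidine run in capitals; they show the 6 most abundant of the genes that have an entry and 3 genes with few counts.

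RPS15, chr19:1438384-1438411, + strand, no motif: gcaggcgcggaccaaagcgatctcttct
RPS16, chr19:39435934-39435961, - strand: gcccctagctttCCTTTTCCggttgcgg
RPS24, chr10:78033851-78033878, + strand: cgaatcgtggttCTCTTTTCCTCCTTgg
RPS14, chr5:150449724-150449751, - strand: ccccctcccactCTCTCTTTCCggtgtg
RPS6, chr9:19380221-19380248, - strand: cggaagttggccCTCTTTTCCgtggcgc
RPS19, chr19:41860243-41860270, + strand: aaccccgtcgttCCCTTTCCCCTggctg
RPS13, chr11:17077652-17077679, - strand: cactctcgctctCCTTTCgttgcctgat
RPSA, chr3:39406708-39406735, + strand: cctgccgcctgtCTTTTCCgtgctacct
RPS26, chr12:56041906-56041933, + strand, no motif: acacataacctcgattttcttccgccat

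RPS15 and RPS26, at opposite ends of the range of levels, both lacked the motif at the annotated start. RPS24 had the longest run among the starts, 14 bases. A missing match says only that these letters are not at the annotated start, and an annotated start that is off by a few bases would lose the match.

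The 28 genes were far from equal in these libraries. Levels are compared between genes as CPM per kb of coding sequence. The study made its libraries with a tagmentation protocol for 3′ ends. Whether counts rise with coding length was not tested, and dividing by this length places short genes higher relative to long ones. RPS15, which sits in the head of the subunit and is needed for export of its precursor from the nucleus, was highest, with 23733 (lowest), 31736 (median) and 46142 (highest) CPM per kb over the 48 dT libraries and 17238, 38228 and 62521 over the 44 Bio libraries. RPS16, whose tail reaches the tRNA in the decoding centre, followed with 13843, 25373 and 38364 (dT) and 3971, 24810 and 45046 (Bio). RPS15A ranged from 7250 over a median of 15437 to 22595 (dT) and from 8833 over 16206 to 27822 (Bio). Neighbours in this order overlapped in range in both screens, whereas every dT library of RPS15 lay above every dT library of RPS15A.

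RPS24, RPS14 and RPS6 came next, with dT medians of 13387, 7669 and 5789 CPM per kb. RPS6 is the subunit's substrate of the S6 kinases, and RPS14 is the gene whose loss marks a form of myelodysplastic syndrome. The fusion genes, which encode a ribosomal protein joined to ubiquitin (RPS27A) or to a ubiquitin-like protein (FAU), differed from each other. FAU had 598, 2049 and 5048 CPM per kb in dT and 0, 1704 and 9151 in Bio. RPS27A had 0, 263 and 1402 in dT and 0, 115 and 2664 in Bio.

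At the low end, RPS26 had no count in any in-screen dT library. It had a count in 3 of 44 Bio libraries, with 3, 1 and 38 counts. The 0 counts in dT, over 16462019 counts in all, allow up to 0.182 CPM at a limit of 3 counts, which covers counting error only. The separate DMSO controls of dT, outside these libraries, held 2, 0 and 3 counts of RPS26. RPS20 had a count in 20 of 48 dT and 8 of 44 Bio libraries. RPSA was counted in 24 and 16 libraries, RPS13 in 28 and 14, and RPS29 in 32 and 18. Their medians in dT were 0 (RPS20), 1.09 (RPSA), 8.45 (RPS13) and 56.2 (RPS29) CPM per kb, while single libraries reached 469, 128, 680.5 and 979. RPSA, also known as the laminin receptor precursor, and RPS20 are both core parts of the subunit. In all, 18 of the 28 had a count in every dT library and 10 in every Bio library, whereas 2 (dT) and 5 (Bio) were at 0 in over 50% of libraries.

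Because of this spread, a handful of the genes carried most of the counts. RPS15 and RPS16 gave 46.7% of the counts of the group in dT and 45.9% in Bio, and the top 6 gave 82.5% and 81.4%. Among the 100 genes of highest mean CPM in the table were 8 small subunit genes in dT and 10 in Bio, beside 14 of the 47 large subunit genes in each. The median gene of the small subunit had a mean of 775 CPM per kb in dT and 872 in Bio, and the median gene of the large subunit 542 and 665. The order of the genes was nearly the same in both screens (Spearman 0.987 over 28 genes). Both screens used the same cell line and workflow. The spread over libraries exceeded counting error for almost all of them: the coefficient of variation was over 1.5 times that of counting alone for 27 genes in dT and all 28 in Bio, and for RPS15 in dT it was 17.9% against 1.53%.

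**Figure D1:**
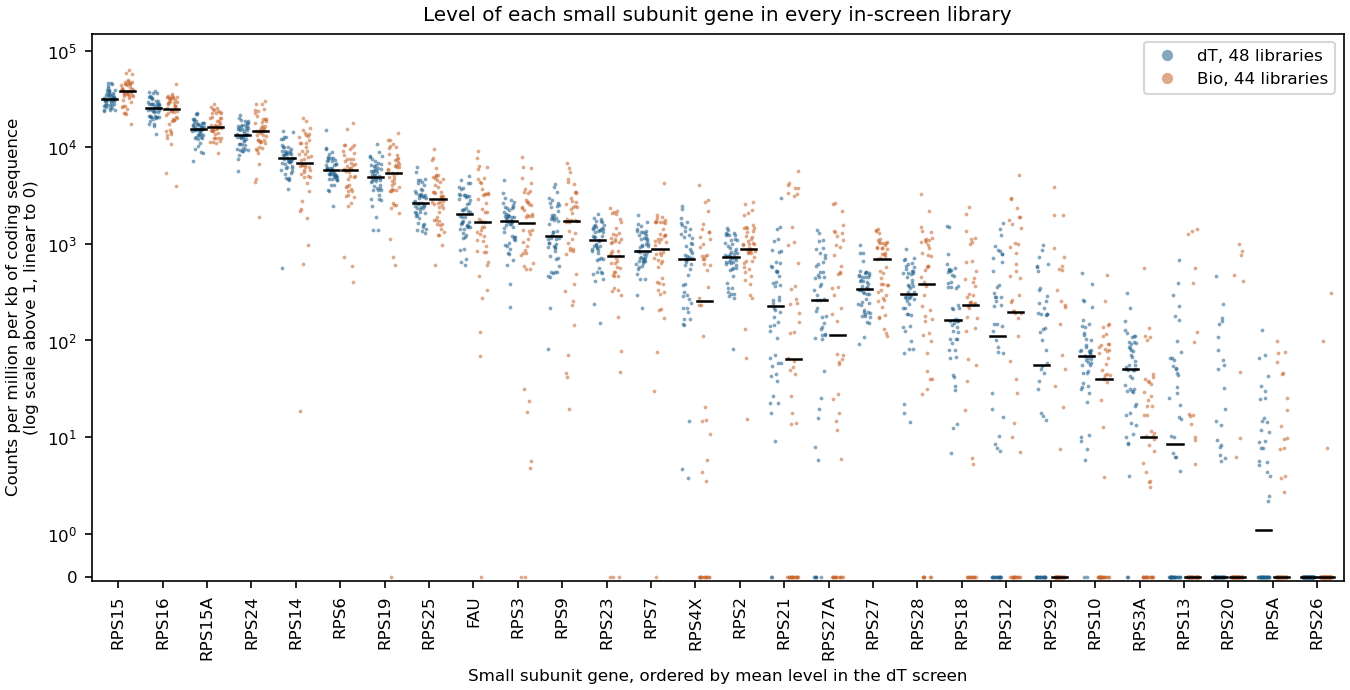
Level of the 28 genes in every in-screen library that passed, as CPM per kb of coding sequence on a log axis that is linear below 1. Each point is a library of the dT (48) or Bio (44) screen and bars are medians; RPS15 is at the top with medians of 31736 and 38228, and RPS26 is at 0 in all dT libraries.

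Library preparation included a digestion with MseI, an enzyme that cuts double-stranded DNA at TTAA, and the levels of the 28 genes were therefore set beside the presence of that motif in their coding sequence (GENCODE release 29, GRCh38). TTAA is its own reverse complement, so a match on either strand is the same site. Of all coding sequences of genes in the table, 70.5% of 14879 held the motif, and 50.6% of 4019 with a length within the range of the members. Among the small subunit genes 9 held none, 12 held 1 and 7 held at least 2. The genes without a site there were RPS14, RPS15, RPS15A, RPS16, RPS19, RPS24, RPS25, RPS27 and RPS28. They include the 5 genes with the highest medians in CPM per kb. In CPM alone, RPS6, with 1 site, had a higher median than RPS14, at 4341.5 against 3497.2 (dT) and 4388.4 against 3170.2 (Bio). Over the whole annotated transcript, RPS14, RPS16, RPS24 and RPS25 held 1 site, RPS19 held 4 and RPS28 held 5. RPS15, RPS15A and RPS27 held 0. Site counts below are those of the coding sequence.

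Examples of the sites in the coding sequence are given as 20 bases with TTAA in capitals. They are for the most abundant gene that holds one there (RPS6) and for some of the genes of lower level.

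RPS6, exon 4 of 6, chr9:19378369-19378388, - strand: gaaagcccTTAAataaagaa
RPS21, exon 4 of 6, chr20:62387857-62387876, + strand: aggcaggtTTAAtggccagt
RPS13, exon 4 of 6, chr11:17075550-17075569, - strand: ataaaattTTAAgaattctt
RPS26, exon 3 of 5, chr12:56042520-56042539, + strand: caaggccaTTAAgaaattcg
RPSA, exon 2 of 7, chr3:39407692-39407711, + strand: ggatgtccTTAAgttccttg

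Genes without a site had a median of 7985 CPM per kb in dT and 8014 in Bio, and 7 of the 9 were at 1000 or above in each screen. Genes with 1 site had medians of 651 and 692, and genes with at least 2 sites 292 and 647, of which 0 of 7 (dT) and 1 of 7 (Bio) reached 1000. The rank correlation between level and number of sites was -0.657 (dT) and -0.605 (Bio) across the 28 genes, which share libraries and are not replicates. The 47 large subunit genes gave -0.679 and -0.675, with medians of 13298, 542 and 130 CPM per kb in dT for 0, 1 and at least 2 sites. Among the small subunit genes, coding length and CPM per kb had rank correlations of 0.023 in dT and -0.037 in Bio. This level is already divided by coding length, so the values cannot show whether counts depend on length. Whether the digestion set these levels was not tested.

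**Figure D2:**
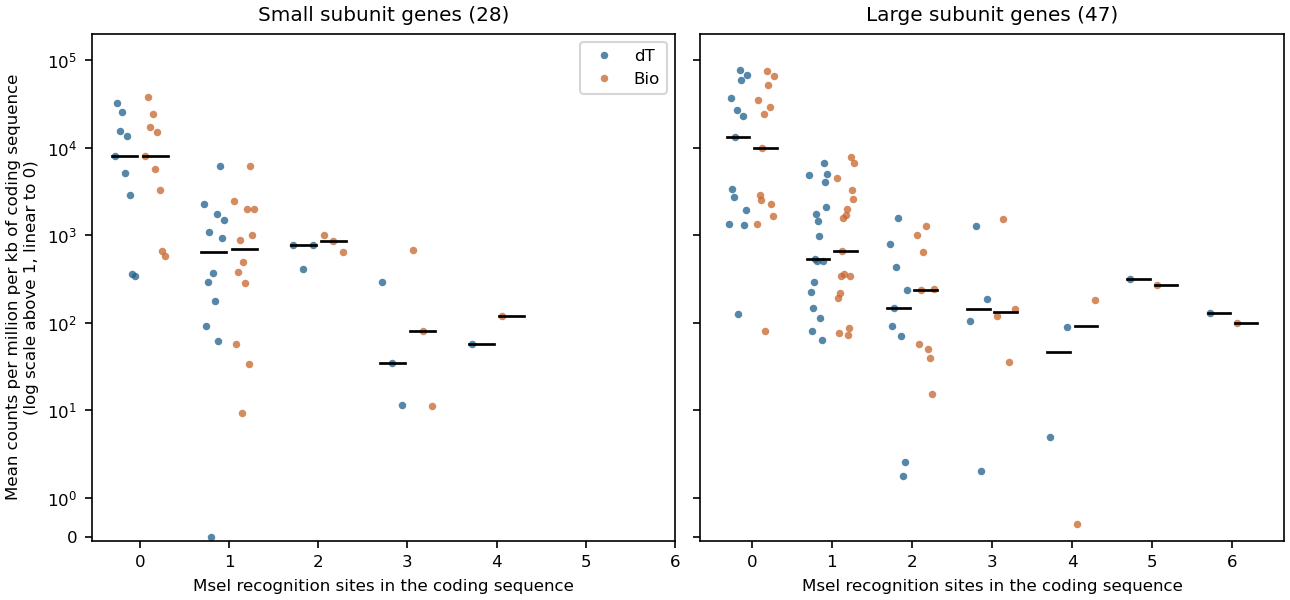
Mean CPM per kb of coding sequence (log axis, linear below 1) against the number of MseI sites in the coding sequence, for 28 small subunit genes (left) and 47 large subunit genes (right). Points are genes and bars are medians; small subunit genes without a site have medians of 7985 (dT) and 8014 (Bio).

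Copies of ribosomal protein genes elsewhere in the genome bear on the same levels. For each gene the share of 59-base stretches of the coding sequence that occurred in no other transcript of the annotation was computed, 59 bases being the length of the cDNA read. It was 0% for RPS10, RPS26, RPS27 and RPS28 and 2.85% for RPS3A, against 100% for RPS19 and RPS21. RPS27 and RPS28 held no MseI site in the coding sequence. They were the lowest of the genes without one there, with dT medians of 339 and 305 CPM per kb. How reads with several matches were counted is not given in the sources used here, so the values of these genes and of others with low shares (RPSA 15.8%, RPS7 25.8%, RPS2 28.6%, RPS15A 30.4%) are uncertain. The rank correlation between this share and the level was 0.474 in dT and 0.489 in Bio.

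Together the 28 genes took 5.49% ± 0.69 of all counts in dT (SD, n = 48 libraries, range 3.64% to 7.34%) and 5.98% ± 1.06 in Bio (n = 44, range 3.38% to 8.66%). A share is relative to the total of its library, so it does not show the number of cells or the RNA per cell in a pool. Libraries with second-listed trametinib had the highest mean share in both screens, 5.80% ± 0.64 (n = 12, dT) and 7.03% ± 0.89 (n = 11, Bio), and libraries with second-listed YM115 the lowest of the second-listed groups, 5.16% ± 0.83 and 5.15% ± 0.78 (n = 12 each). First-listed trametinib, however, had 5.09% ± 0.79 in dT and 5.92% ± 1.13 in Bio (n = 12 each). With and without trametinib in any position, dT libraries had 5.46% ± 0.83 (n = 21) and 5.51% ± 0.58 (n = 27). Bio libraries had 6.33% ± 1.18 (n = 20) with it and 5.68% ± 0.87 (n = 24) without it. The ranges of these groups overlapped. The separate DMSO controls had 4.47%, 1.60% and 4.49% (dT) and 4.72%, 2.13% and 1.92% (Bio).

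The Bio Imatinib_Imatinib libraries, which were left out of the tests for their few detected genes, stood at 10.3%, 17.6% and 18.1%. RPS6 alone took 10.2%, 17.4% and 17.3% of the counts there, with 3098, 4362 and 3087 counts, or 102050, 173720 and 172630 CPM. In Bio DMSO_DMSO it had 6942, 6272 and 4486 CPM, and in dT Imatinib_Imatinib 2653, 3928 and 4052 CPM. RPS15, the top gene elsewhere, had 98.8, 0 and 839 CPM in the same 3 Bio libraries. The highest RPS6 level in any library that passed was 13354 CPM in Bio and 11315 CPM in dT.

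The first question of the design is whether a drug changed the level of these genes when present in either position. For each drug, libraries with the drug were compared with libraries without it in 1 fit per screen, with log2 fold changes from edgeR's quasi-likelihood test and p-values adjusted by Benjamini-Hochberg over all genes tested. Of the 28 genes, 26 could be tested in dT (not RPS26 and RPSA) and 24 in Bio (not RPS20, RPS26, RPS3A and RPSA), the others having too few counts. Only 1 of the 6 tests called a member: RPS15 was higher with imatinib in dT. In each position a drug came with its own barcode fragment, so drug and barcode cannot be told apart within a screen. Most dT libraries with DMSO listed first, where RPS15 had its lowest median of the first-listed groups, held no imatinib. The genes with a mean of at least 1000 CPM had standard errors of 0.08 to 0.24 in dT and 0.13 to 0.73 in Bio, and the 95% interval of all 9 of them stayed within 1 log2 unit of 0 for each drug in dT, as it did for 5 or 6 of 10 in Bio. Of the genes below 1000 CPM, only 5, 5 and 6 of 17 (dT) and 0, 1 and 0 of 14 (Bio) had such an interval for imatinib, trametinib and YM115. Standard errors of these genes reached 1.26 (dT) and 2.55 (Bio). For genes without such an interval, changes beyond 1 log2 unit were not excluded.

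With imatinib present in dT, RPS15 had 9978 (lowest), 16784 (median) and 23923 (highest) CPM after TMM scaling over 21 libraries, against 11076, 14004 and 22205 without it over 27. The ranges overlapped, the present group having both the highest and the lowest library, and the mean was higher with imatinib in 3 of 3 runs. The log2 fold change was 0.27 (SE 0.08, adjusted p = 0.0417). Among all 3930 genes tested 2.88% were called and 0.865% were called higher, against 1 of 26 here. RPS16 had the same log2 fold change of 0.27 (SE 0.09, adjusted p = 0.114), higher in 3 of 3 runs, but did not pass. The RPS15 call was lost without any single run (adjusted p = 0.214 without run 1, 0.307 without run 2 and 0.24 without run 3). In Bio, where the Imatinib_Imatinib libraries were missing, RPS15 had a change of -0.14 in log2 (SE 0.13, adjusted p = 0.709).

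No small subunit gene was called for imatinib in Bio, with 2 at an unadjusted p below 0.05 and 2.34% of 1754 genes called; DESeq2 called 0 of them. The smallest p belonged to RPS24, at 1009, 5722 and 11690 TMM-scaled CPM with imatinib (18 libraries) and 1908, 8038 and 14796 without (26 libraries), a change of -0.49 in log2 (SE 0.22, adjusted p = 0.263). RPS29, which was counted in 18 Bio libraries, followed with -2.99 (SE 1.39, adjusted p = 0.286). The ranges overlapped for both.

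For trametinib 0 of 26 genes passed in dT, where 1.37% of all genes did, with 2 at an unadjusted p below 0.05. These were RPS24 (log2 fold change 0.27, SE 0.12, adjusted p = 0.287) and RPS15 (0.18, SE 0.08, adjusted p = 0.292), each higher in 3 of 3 runs. In Bio 0 of 24 passed, with 0 at an unadjusted p below 0.05 and 1.94% of all genes called, and RPS29 (-1.63, SE 1.31, adjusted p = 0.734) and RPS15 (0.16, SE 0.13, adjusted p = 0.74) had the smallest p. DESeq2 called 0 in both screens.

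For YM115 0 of 26 passed in dT, where 2.62% of all genes did, with 2 at an unadjusted p below 0.05. RPS18, a protein of the head of the subunit, fell just short: it had 6.10, 62.0 and 190.5 TMM-scaled CPM with YM115 and 3.34, 197.5 and 738.6 without, a change of -1.80 in log2 (SE 0.53, adjusted p = 0.0509), lower in 3 of 3 runs with overlapping ranges. RPS6 had -0.28 (SE 0.12, adjusted p = 0.244), also lower in 3 of 3 runs. DESeq2, which called 4.75% of all genes, called both, RPS18 with -2.05 (adjusted p = 0.00097) and RPS6 with -0.50 (adjusted p = 0.019). In Bio 0 of 24 passed (2.74% of all genes), with 1 at an unadjusted p below 0.05, RPS25 (-0.83, SE 0.35, adjusted p = 0.214), followed by RPS27 (-1.01, SE 0.56, adjusted p = 0.39). DESeq2, which called 9.65% of all genes, called both of these. RPS25 is the protein that many viral internal ribosome entry sites need. RPS18 had -0.72 (SE 1.03, adjusted p = 0.835) in Bio.

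The median log2 fold change of the small subunit genes was 0.01, 0.05 and 0.02 for imatinib, trametinib and YM115 in dT, beside 0.07, 0.23 and 0.21 over all genes tested. In Bio the medians were -0.08, -0.03 and -0.21 beside 0.12, 0.30 and 0.53.

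**Figure D3:**
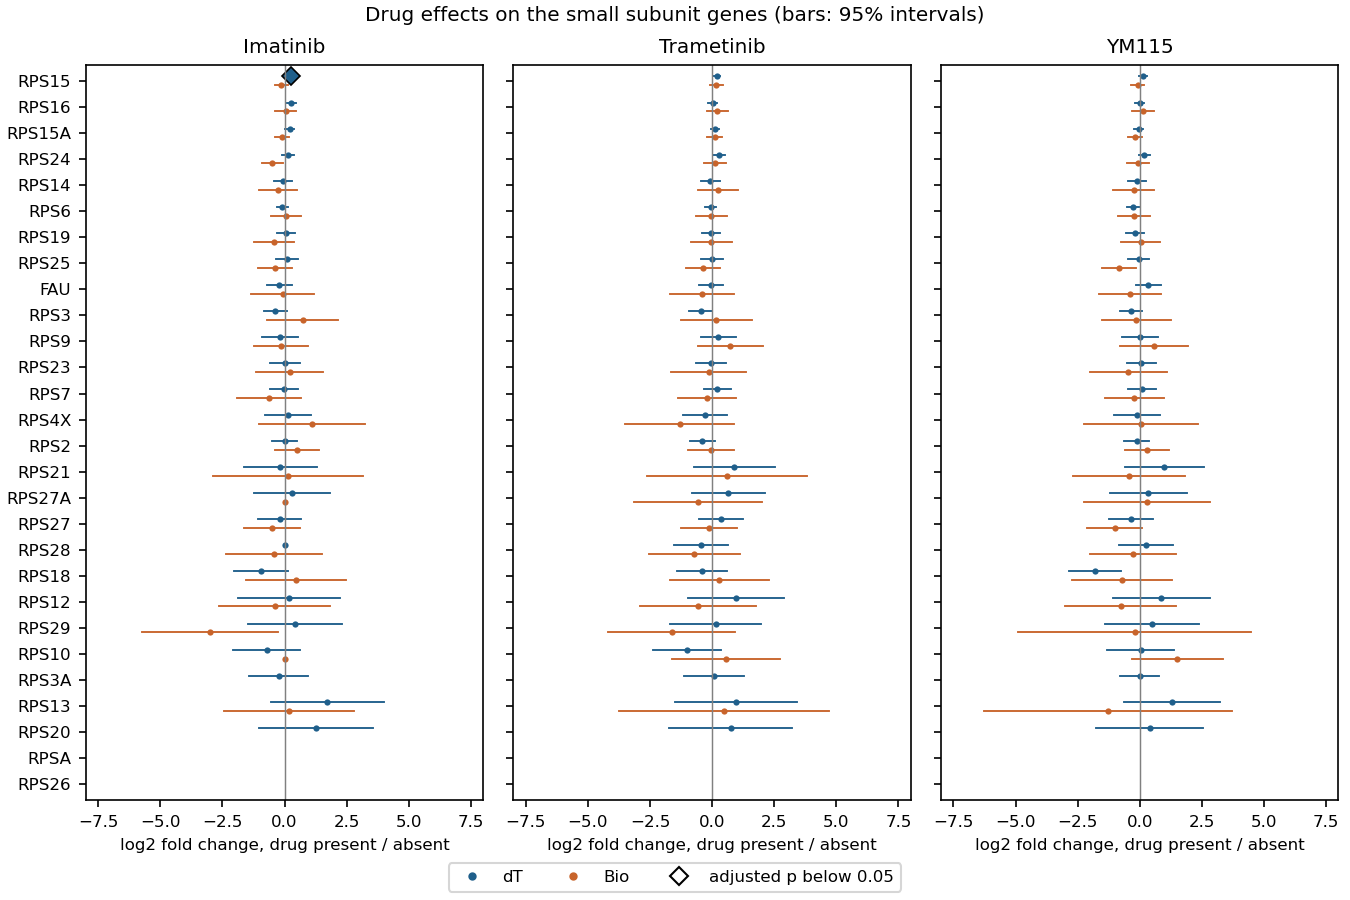
Log2 fold change of each small subunit gene with a drug present against absent, for imatinib, trametinib and YM115 in dT and Bio, with bars for 95% intervals and a diamond for an adjusted p below 0.05. RPS15 with imatinib in dT, at 0.27, carries the only diamond; points without a bar have changes too close to 0 for an interval, and RPSA and RPS26 were not tested.

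The second question is whether it mattered which drug of a pair was listed first. First-listed and second-listed effects of the 3 drugs were compared in a joint test. In dT 1 of 26 genes was called, RPS15 (adjusted p = 0.00916), while 10.7% of all genes were, and RPS16 came next (adjusted p = 0.0712). In Bio 1 of 26 was called, RPS13 (adjusted p = 0.0146), while 21.1% of all genes were, and RPS29 came next (adjusted p = 0.109). Both calls depended on the setting: RPS15 in dT had an adjusted p of 0.0594 to 0.219 with any run left out and 0.0951 with DESeq2 size factors, and RPS13 had a count in only 14 of 44 Bio libraries and lost its call without run 1 (adjusted p = 0.171) and without run 2 (0.0583), while too few counts were left to test it without run 3. Without a low-count filter its adjusted p was 0.224, it was not tested among genes counted in at least 50% of libraries, and DESeq2 gave it no adjusted p. DESeq2 called 1.24% of all genes for position in Bio, and among the small subunit genes RPS27 (adjusted p = 0.000126) and RPS15A (adjusted p = 0.0117), which edgeR did not call.

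Over the first-listed drugs in dT, RPS15 had 9978, 12662 and 13858 TMM-scaled CPM with DMSO (12 libraries), 12290, 18595 and 23923 with imatinib, 11799, 15158 and 22205 with trametinib and 11389, 15681 and 17832 with YM115. The DMSO libraries lay at the low end of all 4 groups, and each range overlapped with that of DMSO. First-listed drug against first-listed DMSO gave a change of 0.40 in log2 (SE 0.06, adjusted p = 1.26e-05, 36 against 12 libraries), higher in 3 of 3 runs, and RPS15 was the only 1 of 26 genes called, where 7.51% of all genes were called and 6.18% were called higher. RPS24 was next with 0.28 (SE 0.11, adjusted p = 0.112).

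The size of the RPS15 difference depended on scaling. First-listed DMSO libraries in dT were the shallowest, with 127042 to 270885 counts (median 194175) against medians of 338731 to 433582 for the other first-listed groups, and their TMM factors had a median of 1.13 against 0.95 to 0.97. In CPM without TMM scaling RPS15 had medians of 12870 (DMSO), 16544 (imatinib), 13498 (trametinib) and 13961 (YM115). The log2 fold change was 0.20 (adjusted p = 0.0387) with library totals, 0.09 (adjusted p = 0.556) with DESeq2 size factors and 0.42 (adjusted p = 0.04) with log2 depth as a covariate, and 0.33 (adjusted p = 0.0591) without run 2. Under DESeq2 size factors RPS6 was called in its place, with -0.55 (adjusted p = 0.017), and with library totals beside RPS15, with -0.44 (adjusted p = 0.0347). The DESeq2 test did not call RPS15 (0.09, adjusted p = 0.469) but 3 other genes, all lower with a first-listed drug: RPS6 (-0.55, adjusted p = 0.000765), RPS18 (-1.54, adjusted p = 0.00907) and RPS3 (-0.74, adjusted p = 0.0128), while it called 15% of all genes. RPS6, RPS18 and RPS3 were named here after their values were seen. The median over all genes moved with the scaling too, from 0.64 with TMM to 0.37 with DESeq2 size factors and 0.47 with library totals.

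Second-listed drug against second-listed DMSO called 0 of 26 genes in dT, with 1 at an unadjusted p below 0.05 and 2.49% of all genes called. RPS6 had -0.28 (SE 0.12, adjusted p = 0.221) and RPS15 0.12 (SE 0.06, adjusted p = 0.349), and DESeq2 called RPS15 (0.28, adjusted p = 0.0094) and 8.4% of all genes. In Bio 0 of 26 passed for the first-listed position, with 0 at an unadjusted p below 0.05 and 0.189% of all genes called, where RPS15 had 0.29 (SE 0.15, adjusted p = 0.271) and RPS21 -2.06 (SE 1.51, adjusted p = 0.49). DESeq2 called 2 there, RPS19 and RPS25, and 20.6% of all genes. For the second-listed position in Bio 0 of 26 passed, with 1 at an unadjusted p below 0.05 and 1.18% of all genes called. RPS29 had -4.23 (SE 1.70, adjusted p = 0.167) and RPS21 3.09 (SE 1.70, adjusted p = 0.357), and DESeq2 called 3, these genes and RPS27, beside 18% of all genes.

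**Figure D4:**
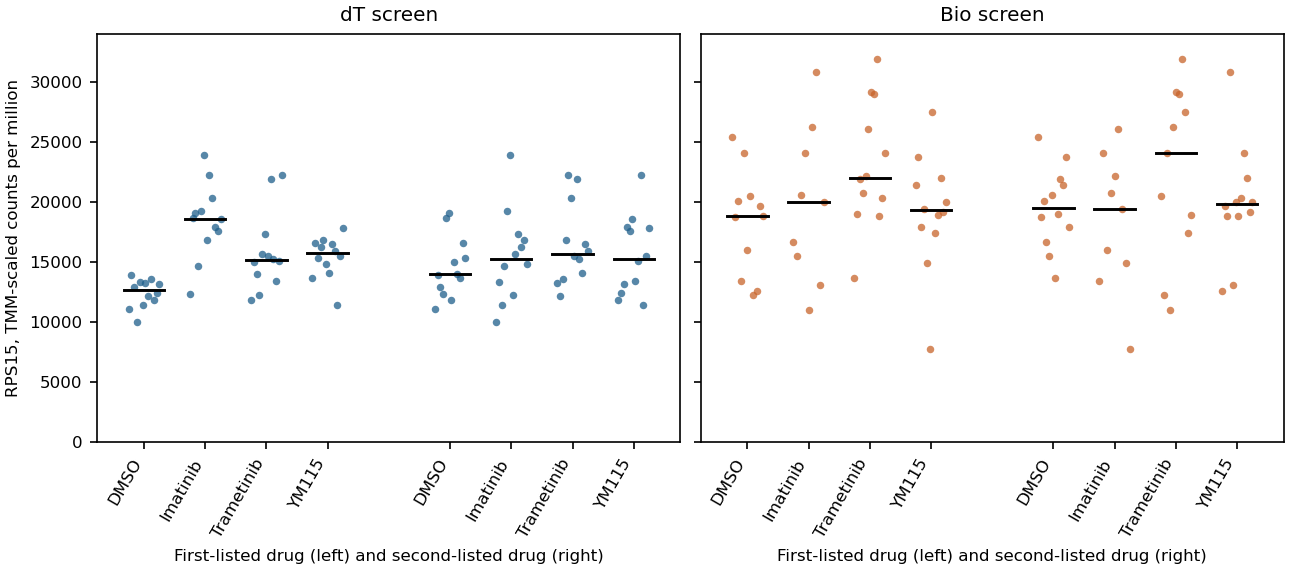
RPS15 in TMM-scaled CPM by the first-listed drug (left 4 groups) and the second-listed drug (right 4 groups), in dT and Bio. Points are libraries and bars are medians; in dT the first-listed DMSO libraries lie between 9978 and 13858 and first-listed imatinib has a median of 18595.

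The third question is whether a pair of drugs acted differently from the sum of its parts. In dT 0 of 27 genes were called for drug pair interaction, with 1 at an unadjusted p below 0.05, 9.77% of all genes called and 0 called by DESeq2, and RPS6 (adjusted p = 0.12) and RPS4X (adjusted p = 0.441) were nearest. In Bio 1 of 27 was called, RPS13 (adjusted p = 0.0269), where 14% of all genes were, and RPS29 was next (adjusted p = 0.0598). RPS13 had a count in 14 of 44 Bio libraries, and its largest values, 575, 624, 256 and 645 CPM, came from single runs of DMSO_DMSO, Trametinib_DMSO, Trametinib_Trametinib and YM115_Imatinib whose other runs had 0 to 178 CPM. The call was lost without any single run (adjusted p = 0.126 to 0.141) and with DESeq2.

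The screens were compared in the same way. Drug effects differed between dT and Bio for 1 of 27 genes, RPS20 (adjusted p = 0.00136), where 26.2% of all genes were called, and RPSA was next (adjusted p = 0.351). RPS20 lines the mRNA entry side of the subunit and is marked with ubiquitin when ribosomes stall. In Bio 8 of the 21 libraries that held YM115 contained RPS20 reads, 372 counts in all, with single libraries at 2.23 to 357 CPM, and in 0 of 23 libraries without YM115, which allows up to 0.535 CPM over these libraries together. In dT 9 of the 21 libraries that held YM115 contained it (103 counts), as did 11 of the 27 others (109 counts). Bio libraries outside this comparison held RPS20 without YM115: Imatinib_Imatinib run 2 had 30 counts, and the separate DMSO controls had 3 and 5 counts in runs 1 and 2. DESeq2 gave no adjusted p for RPS20.

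The RPS20 counts in the Bio libraries with YM115 came mostly from a few libraries of runs 2 and 3, and run 1 held a single count: Trametinib_YM115 run 2 had 155, YM115_Trametinib run 2 had 109, and YM115_DMSO run 3 had 45. The remaining 5 libraries had 1, 1, 4, 23 and 34.

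The levels themselves were also set against each other between the screens. After summing the ordered pairs that passed in all runs of both screens, 0 of 27 genes were called (3 runs against 3), with 1 at an unadjusted p below 0.05, 0.0446% of all genes called and 0 called by DESeq2. RPS15 was higher in Bio by 0.38 on the log2 scale (SE 0.14, adjusted p = 0.527) and RPS21 by 1.03 (SE 0.54, adjusted p = 0.967). Barcode scheme and screen cannot be told apart.

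The separate DMSO controls were set against the in-screen DMSO_DMSO libraries, 3 against 3 in each screen, although 2 of the 3 separate libraries of each screen were over the 15% limit. In dT 0 of 27 genes were called (0.116% of all genes), with 6 at an unadjusted p below 0.05. RPS15 had 6272, 3125 and 6809 CPM in the separate controls and 10395, 14280 and 11623 in DMSO_DMSO, without overlap. After TMM scaling the groups overlapped, at 3906 to 11451 against 10058 to 12439 CPM, with a change of -0.64 in log2 (SE 0.23, adjusted p = 0.296). With library totals the change was -1.11 (adjusted p = 0.00158), and with run 1 as the only separate library, taken to vary like the other groups, -0.62 (adjusted p = 0.968). RPS21 went the other way with 1592, 277 and 1414 CPM against 16.6, 5.74 and 35.3, again without overlap, and a change of 6.27 in log2 (SE 2.25, adjusted p = 0.296) that rests on 3, 1 and 7 counts in DMSO_DMSO. DESeq2, which called 9.23% of all genes, called 7 of these, of which RPS21 was higher and RPS2, RPS3, RPS6, RPS15, RPS15A and RPS16 were lower.

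In Bio 0 of 27 were called (0.0432% of all genes), with 3 at an unadjusted p below 0.05. RPS15A had 1511, 381 and 984 CPM against 4463, 7949 and 10268, without overlap and with a change of -2.81 in log2 (SE 1.06, adjusted p = 0.189). RPS20 had 83.9, 56.0 and 0 CPM, or 3, 5 and 0 counts, against 0 in all 3 DMSO_DMSO libraries (adjusted p = 0.189). DESeq2 called 8 genes, all lower in the separate controls, where it called 18.1% of all genes in either direction and 1.62% lower. The median over the small subunit genes was 0.24 (dT) and -0.74 (Bio) and that over all genes tested 3.39 and 5.63. With DESeq2 size factors the medians of the small subunit genes were -0.91 and -2.50, and the sign in dT thus turned with the scaling. The mitochondrial share of counts, given above, moved with the same groups. So did the number of detected genes, which was 7410 to 10361 (dT) and 5501 to 7058 (Bio) in the separate controls. In-screen libraries that passed had 1837 to 5110 (dT) and 1030 to 3849 (Bio). The part of either in these differences was not tested.

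Split by MseI sites, the 9 genes without a site had a median log2 fold change of 0.06 (dT) and -1.55 (Bio) in the separate controls against DMSO_DMSO, the 11 with 1 site 0.33 and 0.71, and the 7 with at least 2 sites 4.30 and -0.69. In dT 5 of 9, 8 of 11 and 5 of 7 genes of these classes were above 0, and in Bio 0 of 9, 7 of 11 and 3 of 7. The order of the classes thus differed between the screens.

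Other genes of ribosome formation and of initiation were taken from fixed lists. The large subunit list had 43 genes tested in dT, of which 3 were called higher with imatinib. Among all genes 2.88% were called and 0.865% were called higher. The 3 genes were RPL34 (0.30, SE 0.07, adjusted p = 0.0067), RPL31 (0.34, SE 0.08, adjusted p = 0.0141) and RPL13 (0.22, SE 0.06, adjusted p = 0.0403). In Bio 0 of 41 were called for imatinib, with 4 at an unadjusted p below 0.05 and 2.34% of all genes called. Trametinib and YM115 called 0 large subunit genes in both screens, with 3 and 5 (dT) and 1 and 2 (Bio) at an unadjusted p below 0.05. Among all genes, 1.37% and 2.62% (dT) and 1.94% and 2.74% (Bio) were called for these drugs. First-listed drug against first-listed DMSO in dT called 4 of 43, all higher, where 6.18% of all genes were called higher, among them RPL23 (0.67, SE 0.07, adjusted p = 1.53e-08), RPL31 and RPL11.

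Of the factors that act on the small subunit during initiation, 22 were tested in dT and 19 in Bio. RACK1, a scaffold protein bound to the head of the subunit, was the 1 gene called with imatinib in both screens, where 2.88% (dT) and 2.34% (Bio) of all genes were called, at 0.30 (SE 0.09, adjusted p = 0.0392) in dT and 0.46 (SE 0.13, adjusted p = 0.0459) in Bio, and it was also called for the first-listed position in dT (0.27, SE 0.08, adjusted p = 0.0355). EIF4H, a helper of the helicase that unwinds 5′ leaders, was called with YM115 in dT (-4.13, SE 1.17, adjusted p = 0.0408), where 2.62% of all genes were called. Among 19 assembly factors tested in dT, UTP4 was called with imatinib (-5.44, SE 1.42, adjusted p = 0.0235) and NOP14 with YM115 (5.60, SE 1.17, adjusted p = 0.0024). Both are parts of the early precursor particle, and 2.88% and 2.62% of all genes were called. In Bio 0 of 6 were called for any drug, where 1.94% to 2.74% of all genes were called per drug. The counts behind EIF4H, UTP4 and NOP14, and whether these calls hold in other settings, are not given here. Their large fitted changes are thus uncertain. Of the regulators of TOP mRNAs, such as mTOR and LARP1, 0 of 10 (dT) and 0 of 9 (Bio) were called for any drug, with at most 1 at an unadjusted p below 0.05. Among all genes, 1.37% to 2.88% (dT) and 1.94% to 2.74% (Bio) were called per drug. Drug pair interaction called 4 of 12 of them in dT (CNBP, TSC2, TSC1 and RHEB), where 9.77% of all genes were called. In Bio it called 3 of 10 (MTOR, RPS6KB2 and LARP1), where 14% were. The DESeq2 test called 1 gene of all genes tested for interaction in dT and 0 in Bio. The Bio calls and most of the dT calls were thus lost with it. TSC2 was also called for the first-listed position in dT (4.997, SE 1.44, adjusted p = 0.0355), where 7.51% of all genes were called. The counts behind TSC2 are not given here either, and its large fitted change is likewise uncertain. In dT the large subunit genes had median log2 fold changes of 0.19 (imatinib), 0.06 (trametinib) and 0.05 (YM115), and in Bio of 0.15, 0.02 and -0.02.

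Across libraries the most abundant small subunit genes rose and fell together only loosely. Among the 6 highest by median CPM, Pearson correlations of log2 levels lay between -0.26 (RPS15 with RPS6) and 0.57 (RPS15A with RPS24) over 48 dT libraries, and between -0.02 (RPS16 with RPS14) and 0.52 (RPS15 with RPS24) over 44 Bio libraries. RPS15 and RPS15A reached 0.53 and 0.49. These libraries share runs and scaling, and the values are given as a description.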

How the data were processed

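The members, lists and tests were chosen with earlier results of these data known. The deposited values were whole-number read counts for each gene that the authors had not normalised; the submitters' processing notes name STAR 2.4.2a and GRCh38. The annotation release, the use of strand and the treatment of reads with several matches are not given in the sources used here, no collapsing by molecular identifiers was described, and counting intervals cover counting error only. The 102 libraries were grouped by screen and ordered drug pair, with total counts from 17882 to 780143. Whole screens were fitted in R 4.3.3 by the quasi-likelihood test of edgeR 4.0.16 after filterByExpr and TMM scaling, with run as a block and Benjamini-Hochberg adjusted p below 0.05 as the call. Runs were a block because the study repeated its whole process once per run and removed the replicate effect. Deviations of same-run libraries correlated by only 0.018 (dT) and 0.020 (Bio) on average. The between-run values of -0.009 and -0.010 mirror these and are no separate comparison. The dT against Bio test summed libraries per run and had no block. Alternatives were the DESeq2 1.42.0 test and size factors, library totals, other low-count filters, no block, log2 depth as a covariate, other library sets and leaving out each run. Fits were tested on simulated data. A symbol matched 24539 genes. No pair of runs of a group held identical values (0), and chi-square over degrees of freedom between runs was at least 56.7. Intervals are 1.96 standard errors wide on each side. Per comparison, called members (at most 6), or the 2 with the smallest p, were named, and in the level section the 3 highest and lowest and the fusion genes. The table carried 0 rows naming no gene and 0 columns of other samples. Python 3.11.15, numpy 2.4.6, pandas 2.3.3, scipy 1.17.1 and matplotlib 3.10.9 were used.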

Additional observations from a re-analysis of the deposited data

Results flagged for a closer look

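RPS20 drew attention because its drug effects differed between the dT and Bio screens (adjusted p = 0.00136, edgeR quasi-likelihood test). Reads of it were present in 8 of 21 Bio libraries that held YM115 and in 0 of 23 others that passed, and in dT in 9 of 21 and 11 of 27. Bio libraries without YM115 that were not in this test held 30 (Imatinib_Imatinib run 2), 3 and 5 counts (separate DMSO runs 1 and 2), and RPS20 was not tested among genes counted in at least 50% of libraries.

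RPS15 in dT is listed because its first-listed and second-listed drug effects differed (adjusted p = 0.00916), and RPS13 in Bio for the same reason (adjusted p = 0.0146). The latter rests on the 14 of 44 libraries in which it was counted.

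RPS6 is listed for the Bio Imatinib_Imatinib libraries, which enter no comparison. It stood at 102050 CPM in run 1, 173720 CPM in run 2 and 172630 CPM in run 3, against 6942, 6272 and 4486 CPM in the Bio DMSO_DMSO libraries.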

How the results depend on the processing

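Calls among the small subunit genes were few and most of them changed with a setting; the cause was not tested. In dT the imatinib effect called 1 gene, and 0 with library totals, without a low-count filter, with genes counted in at least 50% of libraries and with depth as a covariate. Position in dT called 1, and 0 with DESeq2 size factors, library totals, either filter and the DESeq2 test, but 2 with depth as a covariate. First-listed against DMSO in dT called 1 (RPS15), and 2 with library totals (RPS15 higher, RPS6 lower) and 3 by DESeq2, all lower and without RPS15, while the second-listed contrast called 0, and 1 with either DESeq2 setting. YM115 in dT called 0, and 2 with either DESeq2 setting and 1 with library totals. In Bio, YM115 called 0, and 2 by DESeq2, 1 without a filter and 1 with depth, and trametinib called 0, and 1 with depth. Position in Bio called 1 (RPS13), and 3 with DESeq2 size factors (RPS13, RPS15A and RPS24), 2 by DESeq2 (RPS15A and RPS27) and 0 with either filter; the first-listed contrast called 0, and 2 by DESeq2, and the second-listed contrast 0, and 3 by DESeq2. Interaction in Bio called 1, and 0 with either filter or DESeq2 and 2 with all in-screen libraries. Drug by screen called 1, and 0 with the 50% filter and by DESeq2, which gave RPS20 no adjusted p. The separate controls called 0, and 3, 1 and 7 in dT with DESeq2 size factors, library totals and the DESeq2 test, and 1, 1 and 8 in Bio with DESeq2 size factors, the 50% filter and the DESeq2 test.

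Leaving out 1 run at a time, calls ranged from 0 to 1 for position and the first-listed contrast in dT, were 0 throughout for imatinib in dT and for position and interaction in Bio, and ranged from 1 to 2 for drug by screen, 2 without Bio run 2. Without the run block, position and the imatinib effect in dT called 0, and the other counts were unchanged; with a block added, dT against Bio stayed at 0.

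Signs turned for RPS24 in the first-listed dT contrast (-0.028 with DESeq2 size factors and -0.029 in the DESeq2 test) and for RPS15 in the first-listed Bio contrast (-0.22 in both and -0.21 with depth). Over all genes the first-listed dT contrast split 243 higher to 52 lower, and 133 to 68 with DESeq2 size factors. The YM115 split in dT went from 60 to 43 to 52 to 62, that of trametinib in Bio from 20 to 14 to 14 to 15, and the second-listed dT split from 14 to 84 to 27 to 79. The count for imatinib in dT was 113, and 510 without a filter, 5 with the 50% filter, 12 without the block and 272 with depth. Position called 420 genes in dT, against 1432 without a filter, 20 with the 50% filter, 27 by DESeq2 and 1168 with depth, and 445 in Bio, against 8 with the 50% filter and 14 by DESeq2. Drug by screen called 1234 genes, against 4 with the 50% filter and 7 by DESeq2. Interaction called 612 genes in dT and 480 in Bio, against 1 and 0 by DESeq2. DESeq2 called more genes for the first-listed contrasts (589 against 295 in dT, 436 against 4 in Bio), the second-listed contrasts (330 against 98, 381 against 25), the separate controls (527 against 8, 723 against 2) and dT against Bio (217 against 3).

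Depth limits the genes of low level: RPS26 gave no count in the in-screen dT libraries, and fitted changes of RPS13, RPS20, RPS21, RPS29 and RPSA rest on libraries with few counts. The share of counts of the small subunit genes was 5.75% (dT) and 6.27% (Bio) without mitochondrial counts.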
